A study of Mus musculus with 4 samples.

Results

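Genes that mark T cells, B cells and natural killer (NK) cells were followed in pancreatic islets, which hold the insulin and glucagon cells, of GPR41 transgenic (Tg) and wild-type (WT) mice. The set was a fixed list of 37 symbols, and a gene was measured when the platform annotation paired a probeset with that symbol alone. This held for 35 of the 37, each with 1 probeset, among 22180 measured genes in all. Cd247 and Lck had no such probeset and were not analysed here. By role, the measured genes were 12 T cell genes, 8 B cell genes, 4 NK and cytotoxic cell genes, 9 genes shared by several lymphocyte or leukocyte types, and 2 genes of activated or regulatory T cells.

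The study put 2 Tg and 2 WT samples on Affymetrix Mouse Gene 2.0 ST arrays. All mice were C57BL/6 and aged 5 to 6 months, the Tg mice carried the 41 Tg transgene, the WT mice did not, and all islets were kept in RPMI medium before RNA was purified. GPR41, encoded in mice by Ffar3, senses short-chain fatty acids. The sources used here give neither the promoter of the transgene nor whether a sample holds islets of 1 mouse or of several, and the labels call the samples of a group biological replicates. P-values weigh each difference against the spread between these samples, combined with a variance estimate shared over all genes. Values are deposited log2 values, differences are Tg minus WT on that scale, and a difference of 1 is a doubling.

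Lymphocytes recognise antigen through receptors whose binding chains cannot signal by themselves. In T cells the Cd3 chains carry the signal inward, with the kinases Lck and Zap70 and the adaptor Lat next in line, while Cd4 and the Cd8 chains bind the molecules that present antigen. In B cells Cd79a and Cd79b play the part of the Cd3 chains. NK cells and cytotoxic T cells kill through granules that hold perforin and granzymes. Healthy islets hold few lymphocytes, and they are best known there from the autoimmune attack of type 1 diabetes.

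The array medians lay between 6.43 and 6.47. Ffar3, the gene of the transgene, was at 11.02 and 10.98 on the Tg arrays, against 7.09 and 6.47 on the WT arrays. The means of 12 islet endocrine markers lay between 11.94 and 12.10 on the 4 arrays. Acinar markers, of the exocrine pancreas, averaged 10.82 and 10.43 on the Tg arrays and 10.14 and 11.03 on the WT arrays, so exocrine transcripts were present in every sample and differed most between the WT arrays.

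The promoters of 2 B cell and 2 T cell surface receptor genes are shown as examples. In the values given below, each had both Tg arrays above both WT arrays and Tg replicate 1 at least 0.5 above Tg replicate 2. Other genes of the set, such as Cd79b and Ms4a1, met the same conditions and are not shown. Each run is the 250 bases before the gene's start, 5′ to 3′ on the gene's strand, from RefSeq on GRCm38.p6. Capitals mark AGGAAG (the core letters of Ets-type factors), CAGGTG (an E-box) and CCCNNGGG (letters read by the B cell factor Ebf1), each on either strand. Cd79a lies at chr7:24897247-24897496, plus strand, and Cd22 at chr7:30879029-30879278, minus strand. Cd3e lies at chr9:45009612-45009861, minus strand, and Cd3g at chr9:44980432-44980681, minus strand.
Cd79a: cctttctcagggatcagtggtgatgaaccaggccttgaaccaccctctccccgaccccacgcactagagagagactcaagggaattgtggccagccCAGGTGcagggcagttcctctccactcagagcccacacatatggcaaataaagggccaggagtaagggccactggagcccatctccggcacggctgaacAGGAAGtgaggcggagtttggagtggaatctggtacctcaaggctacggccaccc
Cd22: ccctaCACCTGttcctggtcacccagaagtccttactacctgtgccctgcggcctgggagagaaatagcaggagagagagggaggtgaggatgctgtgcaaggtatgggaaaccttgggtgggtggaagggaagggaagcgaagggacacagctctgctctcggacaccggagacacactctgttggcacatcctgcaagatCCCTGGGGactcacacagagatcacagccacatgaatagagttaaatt
Cd3e: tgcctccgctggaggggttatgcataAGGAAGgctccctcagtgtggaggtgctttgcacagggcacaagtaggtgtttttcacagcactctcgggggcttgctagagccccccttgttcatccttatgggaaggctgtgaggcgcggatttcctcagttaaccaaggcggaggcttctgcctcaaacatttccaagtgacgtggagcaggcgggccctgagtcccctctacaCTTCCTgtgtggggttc
Cd3g: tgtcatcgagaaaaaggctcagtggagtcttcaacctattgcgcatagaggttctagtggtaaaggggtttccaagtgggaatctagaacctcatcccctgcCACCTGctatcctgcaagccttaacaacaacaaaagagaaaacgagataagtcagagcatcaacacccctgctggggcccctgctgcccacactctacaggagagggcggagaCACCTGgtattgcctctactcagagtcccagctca

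The Cd79a window held 1 Ets core and 1 E-box, the Cd22 window 1 E-box and 1 CCCNNGGG, the Cd3e window 2 Ets cores, and the Cd3g window 2 E-boxes. RefSeq gave 37 such windows for 26 of the 37 listed genes, some genes having several. AGGAAG was in 56.8% of the 37 windows, against 29.5% of all 32851 windows, and CAGGTG in 37.8%, against 17.2% of all windows. GAGGAA, which overlaps AGGAAG and is the core of the Ets-type factor PU.1, was in 32.4%, against 23.3%. TTCNNNGAA, the letters read by Stat factors, was in 16.2%, against 7.02%, and TGTGGT, read by Runx factors, in 24.3%, against 14%. CCCNNGGG was in 10.8%, against 11.8%, and the octamer ATTTGCAT in 0 of the 37, against 1.6% of all windows. All 7 motifs were searched on both strands, and a match is a run of letters, not a binding site.

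Of the 35 measured lymphocyte genes, 33 had a higher mean in Tg islets than in WT islets, against 45.7% of all genes. Their median difference was 0.56, against -0.017 over all genes. Both Tg arrays lay above both WT arrays for 26 of the 35, against 18.6% of all genes, and for 0 of the 35 did both Tg arrays lie below, against 23.7% of all genes, so 26 did not overlap in either direction, against 42.3% of all genes. At least 1.5-fold higher with an unadjusted limma p under 0.05 were 17 of the 35, against 2.35% of all genes, made up of 8 shared, 4 T cell, 4 B cell, 1 activation and 0 NK genes. In a bulk sample, more cells of a type and more RNA per cell cannot be told apart. Genes of the same cells move together, so the 35 are not independent observations.

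**Figure D1:**
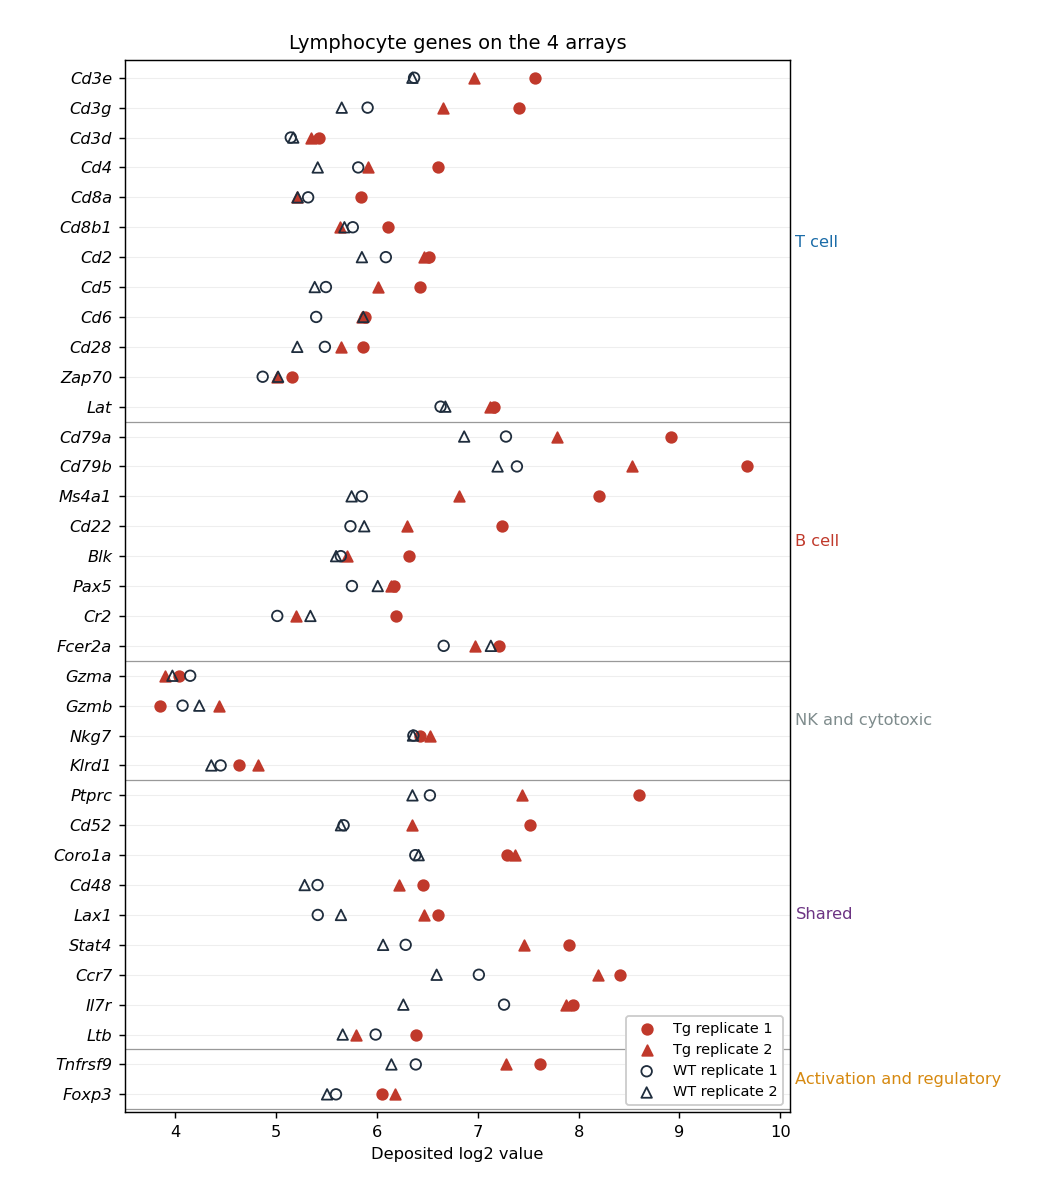
Deposited log2 values of the 35 measured lymphocyte genes on each array, grouped by role (Tg replicates as filled and WT replicates as open symbols). For 26 genes both filled symbols lie to the right of both open symbols, and Tg replicate 1 is the right-most symbol of the 8 B cell genes.

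Of the 35 genes, 6 rose in Tg islets at an adjusted p under 0.05 over all genes (limma, Benjamini-Hochberg), against 0.672% of all genes called higher, and 0 fell, against 0.225% called lower. They were Ccr7, Stat4, Tnfrsf9, Lax1, Cd48 and Coro1a. None is a chain of the T or B cell receptor complex: 5 belong to the shared genes and Tnfrsf9 to the genes of activation. The chain genes Cd79b (1.81), Cd79a (1.28) and Cd3g (1.25) had larger differences than the called Coro1a (0.94). Their Tg arrays lay 0.75 to 1.14 apart, and they did not pass. Cd3e (0.90) and Cd3d (0.23) had smaller differences than Coro1a.

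Ccr7, the chemokine receptor that leads lymphocytes and mature dendritic cells to lymph nodes, was at 8.41 and 8.19 on the Tg arrays, against 7.01 and 6.59 on the WT arrays. Its difference of 1.5 (SE 0.17, adjusted p = 0.033 by limma) is a 2.83-fold increase. Stat4, the transcription factor that interleukin 12 activates in T and NK cells, was at 7.91 and 7.45 in Tg islets, against 6.29 and 6.06 in WT islets. It rose 2.84-fold (difference 1.51, SE 0.18, adjusted p = 0.0334 by limma). Both genes left a gap of more than 1 log2 unit between the groups, of 1.18 for Ccr7 and 1.17 for Stat4.

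Tnfrsf9, a costimulatory receptor that appears on T cells after activation, was at 7.61 and 7.28 in Tg islets, against 6.39 and 6.14 in WT islets (difference 1.18, SE 0.16, adjusted p = 0.0439 by limma). Lax1, an adaptor that restrains antigen receptor signalling in T and B cells, was at 6.61 and 6.47 in Tg islets, against 5.41 and 5.64 in WT islets (difference 1.01, SE 0.13, adjusted p = 0.0392). Cd48, the ligand of Cd2 in mice, was at 6.46 and 6.22 in Tg islets, against 5.41 and 5.28 in WT islets (difference 0.99, SE 0.13, adjusted p = 0.0402). Coro1a, an actin-binding protein of leukocytes, was at 7.29 and 7.37 in Tg islets, against 6.38 and 6.41 in WT islets (difference 0.94, SE 0.10, adjusted p = 0.0309). Its 2 arrays in each group lay closer together than those of the other 5 genes. The gap between the lowest Tg and the highest WT array was 0.81 to 0.89 for these 4 genes.

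The calls rest on limma's shared estimate of the variance and on all 4 arrays. Without variance moderation, 1928 of all 22180 genes had an unadjusted p under 0.05 and 0 passed the adjusted threshold. Of the 6 genes, 0 passed the threshold without variance moderation, where 9 of the 35 had an unadjusted p under 0.05, and 0 passed without Tg replicate 1 or without WT replicate 2. Without WT replicate 1 only Ccr7 of the 6 passed, and without Tg replicate 2 none of them did, while their differences stayed between 0.88 and 1.73 in all of these fits.

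**Figure D2:**
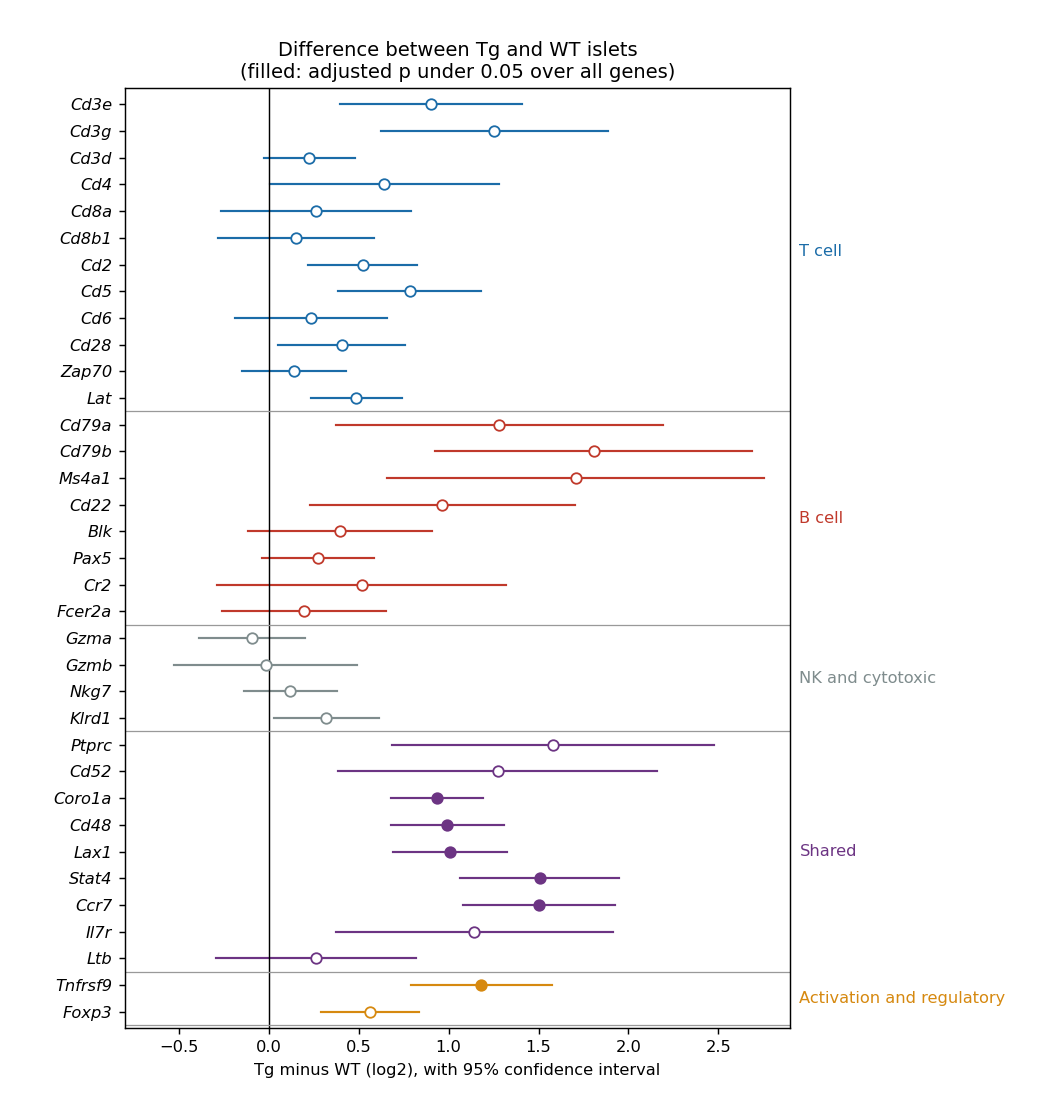
Tg minus WT difference of each gene on the log2 scale with its 95% confidence interval from limma, coloured by role; filled points passed the adjusted threshold over all genes. The filled points are Coro1a, Cd48, Lax1, Stat4, Ccr7 and Tnfrsf9, while Cd79b and Ms4a1 lie furthest to the right with wide intervals.

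Among the other shared genes, Ptprc, the phosphatase found on every white blood cell and known as CD45, was at 8.60 and 7.44 on the Tg arrays, against 6.53 and 6.35 on the WT arrays. Its difference was 1.58 (95% confidence interval 0.69 to 2.48, limma adjusted p = 0.166). Cd52, a small surface glycoprotein of lymphocytes, was at 7.51 and 6.35 in Tg islets, against 5.67 and 5.64 in WT islets (difference 1.27). Both genes had all Tg arrays above the WT arrays, and in both Tg replicate 1 lay 1.17 above Tg replicate 2. Il7r, the interleukin 7 receptor that keeps resting T cells alive, was at 7.94 and 7.87 in Tg islets, against 7.26 and 6.26 in WT islets, so here it was the WT arrays that lay apart. Ltb, the lymphotoxin chain with which lymphocytes organise lymphoid tissue, was at 6.39 and 5.79 in Tg islets, against 5.99 and 5.66 in WT islets, and its groups overlapped. Of the 9 shared genes, 9 had a higher mean in Tg, 8 had both Tg arrays above both WT arrays, against 18.6% of all genes, and the median difference was 1.14.

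The largest differences of the set were those of the B cell genes Cd79b and Ms4a1. As a class, the B cell genes had a median difference of 0.74, below the 1.14 of the shared genes. Of the 8, 0 passed the adjusted threshold, against 0.897% of all genes. Cd79b was at 9.67 and 8.53 on the Tg arrays, against 7.39 and 7.20 on the WT arrays (difference 1.81, SE 0.36, limma adjusted p = 0.117). Ms4a1, which encodes the B cell surface protein CD20, was at 8.20 and 6.81 in Tg islets, against 5.85 and 5.75 in WT islets (difference 1.71, SE 0.42, limma adjusted p = 0.2). Cd79a was at 8.92 and 7.79 in Tg islets, against 7.28 and 6.87 in WT islets (difference 1.28). In all 3 genes the groups did not overlap, and the space between the Tg arrays was 1.13 to 1.39.

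Cd22, an inhibitory receptor of B cells, was at 7.24 and 6.30 in Tg islets, against 5.74 and 5.87 in WT islets (difference 0.97, 95% confidence interval 0.23 to 1.70). Blk, a Src-family kinase of B cells, was at 6.32 and 5.71 in Tg islets, against 5.64 and 5.60 in WT islets. Cr2, the complement receptor of mature B cells and follicular dendritic cells, was at 6.19 and 5.20 in Tg islets, against 5.01 and 5.34 in WT islets. For Blk and Cr2 it was Tg replicate 1 that stood above the other 3 arrays. Pax5, the transcription factor that fixes B cell identity, was at 6.17 and 6.14 in Tg islets, against 5.75 and 6.01 in WT islets. Fcer2a, the low-affinity receptor for IgE, was at 7.21 and 6.97 in Tg islets, against 6.66 and 7.13 in WT islets. The Pax5 difference was 0.28 (SE 0.13) and the Fcer2a difference 0.20 (SE 0.18), and in neither gene did 1 Tg array stand apart.

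The T cell genes had a smaller median difference than the B cell genes, at 0.45. Of the 12, 0 passed the adjusted threshold, against 0.897% of all genes. Cd3g was at 7.41 and 6.66 on the Tg arrays, against 5.91 and 5.65 on the WT arrays (difference 1.25, SE 0.25, limma adjusted p = 0.125). Cd3e was at 7.56 and 6.96 in Tg islets, against 6.37 and 6.35 in WT islets (difference 0.90, SE 0.20, limma adjusted p = 0.163). Cd3d, which lies beside both in the gene order, was at 5.42 and 5.35 in Tg islets, against 5.15 and 5.17 in WT islets (difference 0.23). The 3 Cd3 genes each had both Tg arrays above both WT arrays, although the 3 encode chains of 1 complex and their differences ran from 0.23 to 1.25.

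The co-receptor gene Cd4, of helper T cells and some myeloid cells, was at 6.60 and 5.91 in Tg islets, against 5.81 and 5.41 in WT islets (difference 0.64, 95% confidence interval 0.0066 to 1.28). Cd8a, of cytotoxic T cells and some dendritic cells, was at 5.84 and 5.21 in Tg islets, against 5.32 and 5.21 in WT islets. Its partner Cd8b1 was at 6.11 and 5.63 in Tg islets, against 5.76 and 5.68 in WT islets. The groups overlapped for both Cd8 genes, with differences of 0.26 (95% confidence interval -0.27 to 0.79) and 0.15 (-0.28 to 0.59). Without Tg replicate 1 both were below 0, at -0.054 for Cd8a and -0.088 for Cd8b1.

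Cd5, a receptor that dampens antigen receptor signals, was at 6.43 and 6.01 in Tg islets, against 5.49 and 5.38 in WT islets (difference 0.78). Cd6, a related receptor that lies next to Cd5 in the gene order, was at 5.88 and 5.85 in Tg islets, against 5.40 and 5.86 in WT islets, and its groups overlapped. The adhesion receptor Cd2 was at 6.52 and 6.46 in Tg islets, against 6.09 and 5.85 in WT islets (difference 0.52). Lat was at 7.16 and 7.12 in Tg islets, against 6.63 and 6.68 in WT islets (difference 0.49, SE 0.10). The costimulatory receptor Cd28 had a difference of 0.41 (SE 0.14) without overlap, and Zap70 one of 0.14 (SE 0.12) with overlap. In Cd5, Cd2 and Lat both Tg arrays lay above both WT arrays, and none of these genes passed the adjusted threshold.

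Foxp3, the transcription factor of regulatory T cells, was at 6.05 and 6.18 in Tg islets, against 5.59 and 5.51 in WT islets (difference 0.56, SE 0.11, limma adjusted p = 0.115). Its groups did not overlap, and Tg replicate 2 was the higher array of the 2.

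Of the 4 NK and cytotoxic genes 0 passed the adjusted threshold, against 0.897% of all genes. A lower mean in Tg islets was found for 2 of the 4, against 12034 of all 22180 genes. The granzyme gene Gzma was at 4.03 and 3.90 on the Tg arrays, against 4.15 and 3.97 on the WT arrays (difference -0.092, 95% confidence interval -0.39 to 0.20). Gzmb was at 3.85 and 4.43 in Tg islets, against 4.07 and 4.24 in WT islets (difference -0.017, interval -0.53 to 0.49). Nkg7, a granule membrane protein, was at 6.43 and 6.53 in Tg islets, against 6.36 on both WT arrays (difference 0.12, interval -0.14 to 0.38). Klrd1, the NK receptor chain CD94, was at 4.63 and 4.82 in Tg islets, against 4.45 and 4.36 in WT islets (difference 0.32, interval 0.030 to 0.61). The median difference of the 4 was 0.051, and 2 of the 4 had both Tg arrays above both WT arrays, against 18.6% of all genes. The WT means of Gzma, Gzmb and Klrd1 lay at the 8.96, 10.4 and 14.7 percentiles of all genes, so these 3 were measured near the dim end of the arrays.

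By array, the B cell genes averaged 7.49 and 6.68 in Tg islets, against 6.17 and 6.22 in WT islets. The T cell genes averaged 6.33 and 5.99 in Tg islets, against 5.69 and 5.62 in WT islets. The NK and cytotoxic genes averaged 4.73 and 4.92 in Tg islets, against 4.76 and 4.73 in WT islets. The 3 classes were thus ordered B cell, T cell, NK by their median difference, of 0.74, 0.45 and 0.051. The order was the same with Tg replicate 2 alone against the WT arrays, with smaller steps between the classes: the medians were then 0.38 for B cell, 0.30 for T cell and 0.22 for NK and cytotoxic genes. The shared genes were at 0.97 in that comparison. The differences between the classes were not tested.

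The 2 Tg arrays were set against each other gene by gene. Tg replicate 1 was above Tg replicate 2 for 30 of the 35 genes, against 48.5% of all genes. For the 8 B cell genes it was so in 8, with a median of 0.97, and for the 12 T cell genes in 12, with a median of 0.31. For the NK and cytotoxic genes it was so in 1 of 4. A gap of at least 0.5 in favour of Tg replicate 1 was found for 13 of the 35 genes, against 1.96% of all genes, and 6 of these 13 were B cell genes. The T cell genes with such a gap were Cd3e, Cd3g, Cd4 and Cd8a, and the shared ones were Ptprc, Cd52 and Ltb. The other B cell genes were Pax5 and Fcer2a.

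The WT arrays differed less in these genes. WT replicate 1 was above WT replicate 2 for 24 of the 35, against 55.5% of all genes, with a median of 0.093. Only Il7r had WT arrays at least 0.5 apart, against 5.28% of all genes. The B cell genes had a median of -0.045 between the WT arrays, with 4 of 8 above 0. The wide spread of the B cell genes was thus between the Tg arrays.

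**Figure D3:**
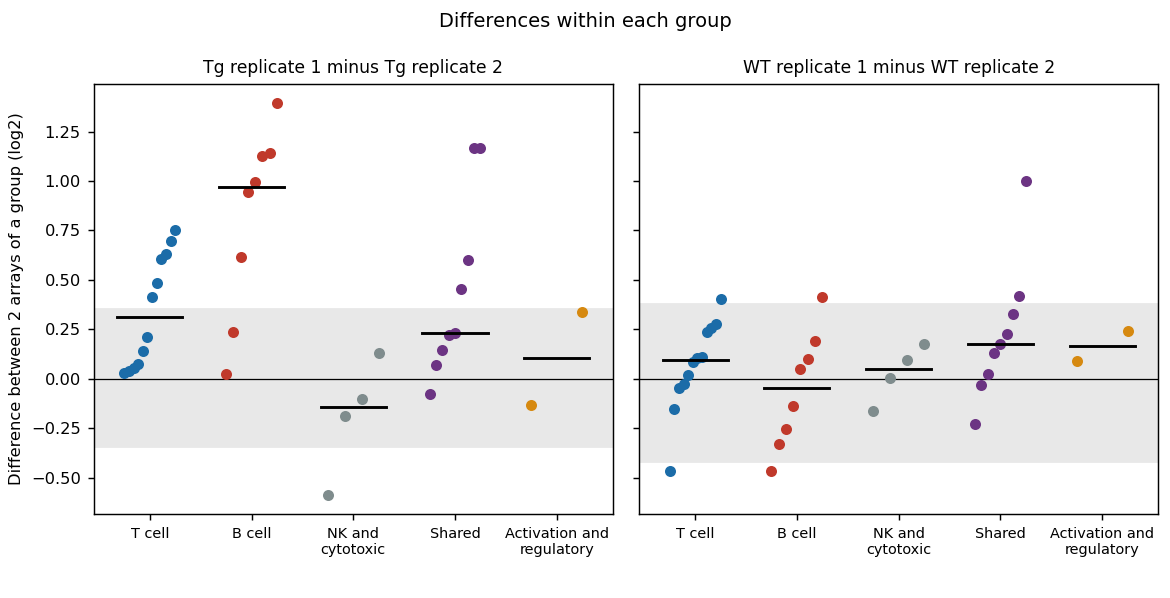
Difference between the 2 arrays of a group for each lymphocyte gene by role, with Tg replicate 1 minus Tg replicate 2 on the left and WT replicate 1 minus WT replicate 2 on the right; black bars are medians and grey bands hold the central range of all genes from the 5th to the 95th percentile. Of the 8 B cell genes, 6 lie above 0.5 between the Tg arrays and 0 of 8 between the WT arrays.

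With Tg replicate 1 left out, Tg replicate 2 was above both WT arrays for 27 of the 35 genes, against 33.5% of all genes, and the median difference was 0.49. With Tg replicate 2 left out, the largest differences of the set were those of Ms4a1 (2.40), Cd79b (2.38), Ptprc (2.16) and Cd52 (1.86). Such a fit has 1 Tg array and assumes that it varies as the WT arrays do. With all 4 arrays, the 5 genes with the largest standard errors, Ms4a1, Cd79a, Ptprc, Cd52 and Cd79b, were those whose Tg arrays lay more than 1 apart.

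Other genes of the same cells were counted beside the 37. Of 22 further B cell genes, 20 had a higher mean in Tg, against 45.7% of all genes, with a median difference of 0.67. Of the 22, 0 passed the adjusted threshold, against 0.897% of all genes. Bank1, a B cell scaffold protein, was at 8.30 and 7.36 in Tg islets, against 5.95 and 5.75 in WT islets, and Pou2af1, a B cell coactivator, at 8.29 and 7.53, against 6.07 and 6.61 in WT islets. Cd37 (difference 1.09) and Tnfrsf13c, the receptor of the B cell survival factor BAFF (1.08), also missed the threshold. Tg replicate 1 was above Tg replicate 2 in 22 of these 22 genes, with a median of 0.54, as it was in 8 of 8 B cell genes of the set.

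Of 25 further T cell genes, 20 had a higher mean in Tg, against 45.7% of all genes, with a median of 0.25. Of the 25, 1 rose, against 0.672% of all genes called higher. Tg replicate 1 was above Tg replicate 2 in 17 of these 25, with a median of 0.065, against 12 of 12 and 0.31 for the T cell genes of the set. The 1 gene that rose was Rasgrp1, a Ras activator downstream of the T cell receptor that other cells also use, at 9.0 and 8.72 in Tg islets, against 5.94 and 5.90 in WT islets (difference 2.94, SE 0.13, limma adjusted p = 0.00131). Icos, a costimulatory receptor, had a difference of 0.43 (SE 0.10), Il21r one of 0.63 (SE 0.14) and the chromatin organiser Satb1 one of -0.66 (SE 0.16), and none of the 3 passed. Of 20 further NK and cytotoxic genes, 13 had a higher mean in Tg, against 45.7% of all genes, with a median of 0.092. Of the 20, 0 passed, against 0.897% of all genes. The median percentile of their WT means was 21.8, against 46.3 for the further B cell genes, so many of them were dim. The perforin gene Prf1 was at 6.86 and 7.11 in Tg islets, against 6.71 and 6.69 in WT islets. Ncr1, a receptor that defines NK cells, was at 4.53 and 4.83 in Tg islets, against 4.81 and 4.53 in WT islets, so its groups overlapped, and Gzmk (0.35), Klrg1 (0.36) and Txk (0.27) did not pass.

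Macrophages and dendritic cells share several members of the set, among them Ptprc, Cd48, Coro1a, Cd4 and, when mature, Ccr7. Of 26 measured macrophage and dendritic cell markers, 24 had a higher mean in Tg, against 45.7% of all genes, and 20 had both Tg arrays above both WT arrays, against 18.6%, with list means of 7.45 and 7.42 on the Tg arrays and 6.97 and 6.84 on the WT arrays. Cathepsin S, encoded by Ctss, rose (difference 1.14, SE 0.14, limma adjusted p = 0.0345), while Cd68 (0.75), Tyrobp (1.10), Fcgr1 (0.73), Csf1r (0.66) and Itgam (0.21) did not pass. The median difference between Tg replicate 1 and Tg replicate 2 in this list was 0.023, with Tg replicate 1 higher in 14 of 26, against 0.97 and 8 of 8 for the B cell genes. The part of macrophages and dendritic cells in the shared genes was not tested.

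Of 19 measured broad leukocyte genes outside the set, 19 had a higher mean in Tg, against 45.7% of all genes, with a median of 0.88. Of the 19, 5 rose, against 0.672% of all genes called higher. The 4 with the smallest p were the integrin gene Itga4 (1.85), the selectin ligand gene Selplg (1.27), the tetraspanin gene Cd53 (1.74) and Cytip (1.67). Tg replicate 1 was above Tg replicate 2 in 18 of the 19, with a median of 0.31. Neutrophil and mast cell markers had a median of 0.016, with 8 of 15 higher in Tg, against 45.7% of all genes. The median percentile of their WT means was 19.5, so many of them were dim. Endothelial markers were higher in Tg in 15 of 15, against 45.7% of all genes, with a median of 0.34. They were higher in Tg replicate 1 than in Tg replicate 2 in 15 of 15, with a median of 0.29. Between the WT arrays, 14 of 15 were higher in WT replicate 1, with a median of 0.21. Pecam1 was at 8.95 and 8.59 in Tg islets, against 8.35 and 8.14 in WT islets. Acinar markers were higher in Tg replicate 1 than in Tg replicate 2 in 9 of 10, with a median of 0.44, but in WT islets WT replicate 2 was the higher array in 10 of 10. Genes of lymph node stroma and high endothelium averaged 7.44 and 7.42 on the Tg arrays and 6.99 and 7.39 on the WT arrays. Of these 10 genes, 6 were higher in Tg, against 45.7% of all genes, with a median of 0.23. Among them Glycam1, made by the vessels through which lymphocytes enter lymph nodes and also by mammary gland, was at 8.19 and 9.10 in Tg islets, against 5.67 and 7.02 in WT islets (difference 2.30, SE 0.49, limma adjusted p = 0.141), and was higher on Tg replicate 2. Madcam1 (0.36) and Lyve1 (-0.75) did not pass. The part of endothelial, exocrine or lymph node tissue in the lymphocyte genes was not tested.

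**Figure D4:**
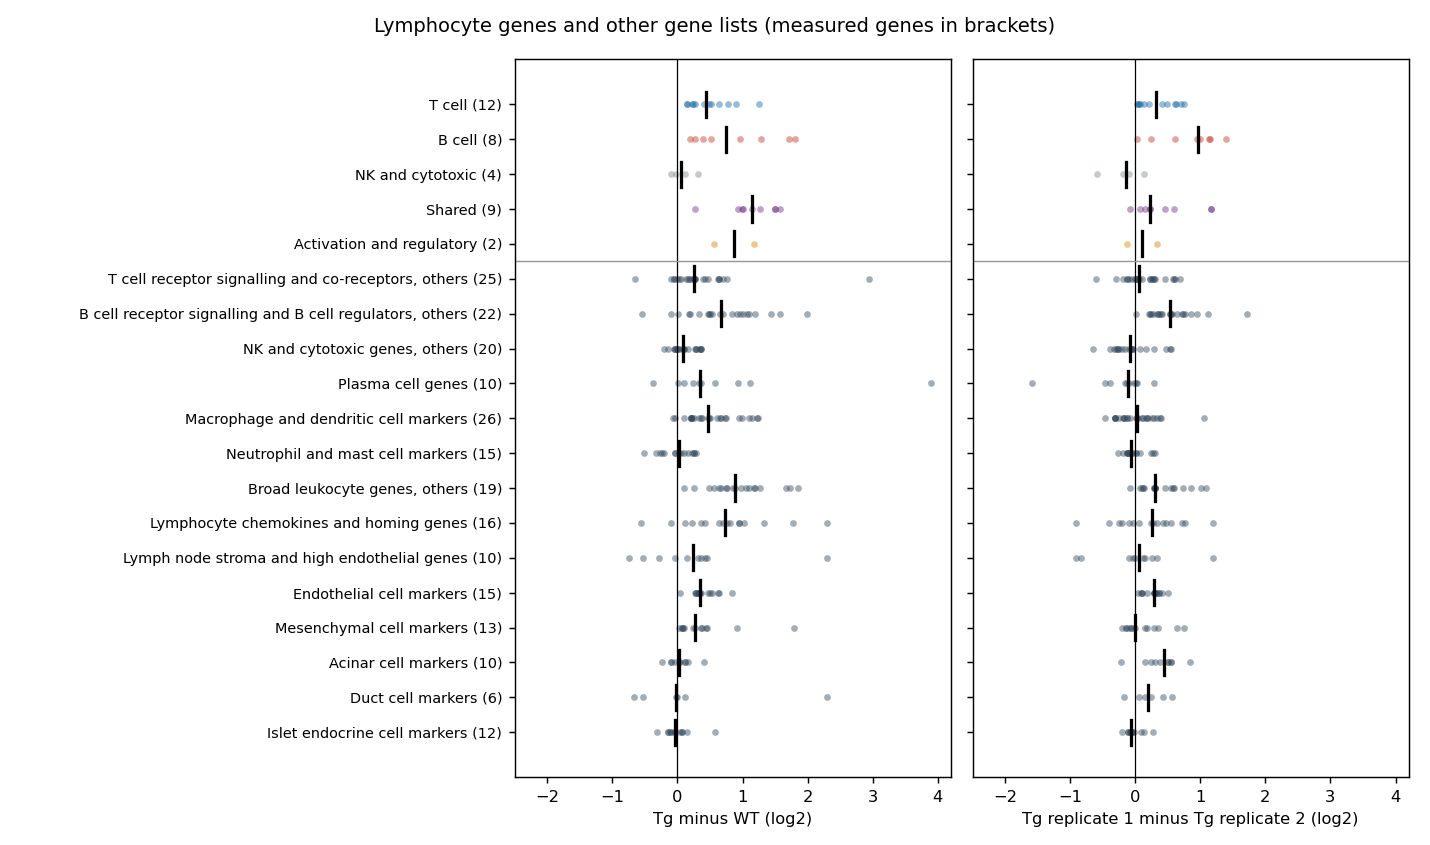
Each point is a measured gene, by list, with the list's median as a black bar; the left panel gives Tg minus WT and the right panel Tg replicate 1 minus Tg replicate 2, both on the log2 scale. The 2 B cell lists have medians of 0.74 and 0.67 on the left and 0.97 and 0.54 on the right, and the macrophage and dendritic cell list has 0.47 on the left and 0.023 on the right.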

How the data were processed

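Islet RNA of 2 Tg and 2 WT samples was measured on Affymetrix Mouse Gene 2.0 ST arrays, with 250 ng of total RNA labelled per array, per the labels' protocols. Values deposited by the authors run between 2.87 and 13.9, which fits a log2 scale. Partek and RMA, a method that summarises probes after background correction and quantile normalisation, are named without versions per the submitters' processing notes. No genome build for the probesets is given in the labels used here. Groups came from the sample titles, and all 4 value columns were used.

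The table held 27037 probesets, of which 23521 had 1 gene symbol, 1814 several and 1702 none. The brightest single-symbol probeset by mean over the 4 arrays stood for a gene, which left out 1341 dimmer ones and gave 22180 genes. Tg minus WT was fitted across all genes with lmFit and eBayes (limma 3.58.1, R 4.3.3), two-sided, with Benjamini-Hochberg adjustment over all 22180 genes. There were 2 residual and 3.76 prior degrees of freedom. An exact permutation test of 2 against 2 arrays cannot give a p below 0.333, and the number of arrays limits the precision.

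The lymphocyte genes and the 14 comparison lists (219 of 242 entries measured, older symbols matched through RefSeq names, and some genes in more than 1 list) were chosen with earlier results of these data known. The promoter motifs were chosen after some of their counts had been seen. Lists are described by counts and medians without a test. Any lymphocyte gene could be named, and of other lists up to 4 genes with the smallest p, along with set defining genes such as Ncr1, Cd68 and Pecam1. The fit was tested on simulated data. Alternatives were other probeset summaries, a level filter, other scalings, other variance priors, a replicate block and each array left out.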

Additional observations from a re-analysis of the deposited data

How the results depend on the processing

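Against 6 lymphocyte genes past the adjusted threshold and 199 of all genes, the counts were 0 and 0 without variance moderation (9 lymphocyte genes and 1928 of all genes at an unadjusted p under 0.05), and 0 to 4 and 38 to 135 with each array left out. A variance trend with a robust prior called 347 of all genes and the same 6 lymphocyte genes. The same 6 were also called with probeset means, single probesets, all probesets, repeated quantile normalisation, centring and a variance trend. The level filter left 12 lymphocyte genes, of which 4 were called, against 2.12% of the 11090 genes left. With the replicate block 0 lymphocyte genes and 24 of all genes were called. In that fit 21 lymphocyte genes and 2279 of all 22180 genes had an unadjusted p under 0.05. The deviations of same-numbered arrays from their group means correlated at -0.063, so the numbers were not taken to pair the arrays. Among genes above the median level the median difference was 1.23 for the 12 lymphocyte genes left. By role it was 0.69 for T cell genes (2 left), 1.49 for B cell genes (4 left) and 1.5 for shared genes (5 left). It was 1.18 for the activation gene left. The level was the mean over all 4 arrays, so a gene could enter through its Tg values. Ms4a1, Stat4, Tnfrsf9, Cd3e, Coro1a and Ptprc entered with WT means at the 40.3, 45.6, 46.7, 48.0, 48.5 and 49.1 percentiles of all genes. The filter thus favours genes that are high in Tg, and these medians are no support for a larger difference. With each array left out the medians ranged from 0.49 to 0.90 over all lymphocyte genes, 0.38 to 1.23 for B cell genes, 0.020 to 0.22 for NK and cytotoxic genes, 0.30 to 0.53 for T cell genes, 0.97 to 1.29 for shared genes and 0.79 to 0.96 for activation and regulatory genes. The count of genes with Tg above WT was 27 to 33 with each array left out, which was chosen after seeing the data and in which fewer arrays make an overlap less likely (29.2% to 34.4% of all genes). With each array left out, 7 differences turned sign in at least 1 fit: Cd8a ranged from -0.054 to 0.58, Cd8b1 from -0.088 to 0.39, Ltb from -0.035 to 0.56, Fcer2a from -0.038 to 0.43, Gzmb from -0.31 to 0.28, Ncr1 from -0.14 to 0.16 and Sdc1 from -1.01 to 0.26. Ncr1 also turned after repeated quantile normalisation (-0.0063) and after centring (-0.013). The cause was not tested. Over 82 alternatives the 6 called genes were called 47 times, and over 385 alternatives the other lymphocyte genes were called 5 times. Signal near background limits the granzyme genes and Klrd1, and the tests of all genes rest on 2 arrays a group.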

Other observations

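Genes of plasma cells, the antibody-secreting descendants of B cells, were also counted. Jchain, which joins antibodies into polymers, was at 8.47 and 10.06 in Tg islets, against 4.86 and 5.88 in WT islets (difference 3.89, SE 0.56, limma adjusted p = 0.056), so here Tg replicate 2 was the higher Tg array. Mzb1, a chaperone of antibody secretion, rose, at 7.39 and 7.55 in Tg islets, against 6.38 and 6.32 in WT islets (difference 1.12, SE 0.11, limma adjusted p = 0.0211). The plasma cell regulator Irf4 (0.93) and Derl3 (0.57) did not pass. Sdc1, which epithelial cells share with plasma cells, was at 7.01 and 7.04 in Tg islets, against 6.76 and 8.04 in WT islets. Of the 10 measured plasma cell genes, 9 had a higher mean in Tg, against 45.7% of all genes. Tg replicate 1 was above Tg replicate 2 in 3 of 10, against 48.5% of all genes, with a median of -0.11. Only 1 of the 10, Jchain, had Tg arrays at least 0.5 apart.

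Of 16 measured chemokine and homing genes, 14 had a higher mean in Tg, against 45.7% of all genes, with a median of 0.73. Of the 16, 3 rose, against 0.672% of all genes called higher. These were Cxcl11 (1.33, limma adjusted p = 0.0345), Cxcl10 (1.02, adjusted p = 0.0392) and Cxcl9 (0.94, adjusted p = 0.0432). Cxcl9 and Cxcl10 encode ligands of the T and NK cell receptor Cxcr3. Ccl22 (1.77, limma adjusted p = 0.0575) did not pass. A further probeset that names Foxp3 together with Ccdc22 and Ppp1r3f was at 7.29 and 7.31 in Tg islets, against 7.08 and 7.24 in WT islets.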
